A study of Ovis aries with 95 samples.

Results

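The hypothalamus of newborn lambs was compared with that of fetuses close to term, over all ovine gene probes of the array. The comparison was defined by the labels alone and took 8 of the 95 arrays of the series: the 4 hypothalamus arrays labelled 1 day of extrauterine life and the 4 labelled 145 days of gestational life. The series covers cortex, brainstem, hippocampus and hypothalamus of sheep (Ovis aries) at 80, 100, 120, 130 and 145 days of gestation and 1 day after birth. The study collected the 145 d group between days 142 and 144 before any sign of labor in the ewes, and each age included 1 set of twins that the labels do not mark. Fetal tissue was taken after the ewe had been killed with pentobarbital, and how the lambs were killed is not given in the sources used here. The groups therefore differ by age and by the passage through birth, and possibly by the anesthetic, which cannot be told apart. Each array was hybridized with Cy3-labeled RNA of 1 hypothalamus, a whole tissue block, so fewer cells of a type and less RNA per cell cannot be told apart either.

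The hypothalamus joins the nervous and the endocrine system: its neurons release the peptides that drive the pituitary and set feeding, fluid balance, temperature, stress responses and reproduction. At birth the lamb leaves a warm, sterile and fluid environment, loses the placental supply of glucose and oxygen, and meets microbes for the first time. Astrocytes, the glial cells marked by GFAP and the water channel AQP4, mature in the late fetal brain. Immediate early genes such as those of the JUN family are transcription factors that respond quickly to hormones and stress. Type I interferon induces a set of antiviral genes in most cells and raises MHC class I, the molecule that presents peptides to cytotoxic T cells.

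All 8 arrays carried hypothalamic markers. Of the 10 identity genes measured, OXT, GAL, AGRP, GHRH and GNRH1 did not overlap between hypothalamus and the other regions at these ages. The level of OXT (oxytocin) lay between 10.35 and 11.44 on the 8 hypothalamus arrays and between 7.65 and 9.46 on the cortex, brainstem and hippocampus arrays of these ages, on the log2 scale of the normalized signal. Likewise GAL (galanin) reached 8.81 to 9.87 in hypothalamus against at most 7.53 elsewhere, AGRP (agouti-related peptide, of feeding neurons) 7.93 to 9.66 against at most 6.82, and GHRH (growth hormone releasing hormone) 7.71 to 9.37 against at most 6.88. GNRH1 (gonadotropin releasing hormone) reached 6.62 to 7.47 against at most 6.52. SST and NPY were higher in cortex, with medians of 14.72 and 12.53 there against 13.10 and 11.15 in hypothalamus.

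Birth was accompanied by a change of 320 of the 12929 genes tested (2.48%) at an adjusted p under 0.05 in limma, 183 higher (1.42%) and 137 lower (1.06%) in the newborn hypothalamus. The genes that rose did so by a median of 0.82 on the log2 scale (range 0.36 to 2.88), and those that fell by a median of -0.78 (range -3.57 to -0.33). Changes of over 2-fold were seen for 61 of the former and 40 of the latter. The median change over all genes was 0.00, and the lowest adjusted p was 0.000414. The newborn and 145 d arrays did not overlap for 165 of the 183 genes that rose and 128 of the 137 that fell. Over all genes tested, 6.96% had all newborn arrays above all 145 d arrays and 5.22% had them below. Newborn arrays lay outside the range of all 20 fetal hypothalamus arrays for 34 of the risers and 27 of the fallers, against 0.58% of all genes above and 0.433% below. The risers and fallers were selected on the same newborn and 145 d arrays, so neither comparison is separate support for their calls. Of the 888 genes with a symbol, 19 rose and 8 fell, and 293 of the genes that passed have no symbol.

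The arrays differed in ways that touch these counts. Replicates 1 of both ages shared a slide, as did replicates 2, and replicates 3 and 4 of both ages shared the third slide. With slide as a block 682 genes passed (5.27%), 319 of them among the 320. The direction was the same on all 3 slides for 177 of the genes that rose and 129 of those that fell, against 40.6% of all genes. The genes that passed were selected on these same arrays, so agreement between slides was partly built in and is no separate support. Replicate 1 of the 145 d group weighed most: without it 39 genes passed, without newborn replicate 4 there were 54 and without newborn replicate 2 there were 88. Among the 4 fetal arrays this array was the one farthest from the newborn arrays in 97 of the 183 risers and 104 of the 137 fallers. Over all 12929 genes it was the lowest of the 4 fetal arrays for 4186 and the highest for 5325. On each of the 8 arrays 77.3 to 84.0% of the gene probes were well above background, and 0 gene spots were saturated. Scanner outlier marks numbered 132 to 189 on the arrays of replicates 1 and 2 and 7 to 10 on those of replicates 3 and 4. Over the whole set of alternatives the count of genes ran from 1 to 1540.

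**Figure D1:**
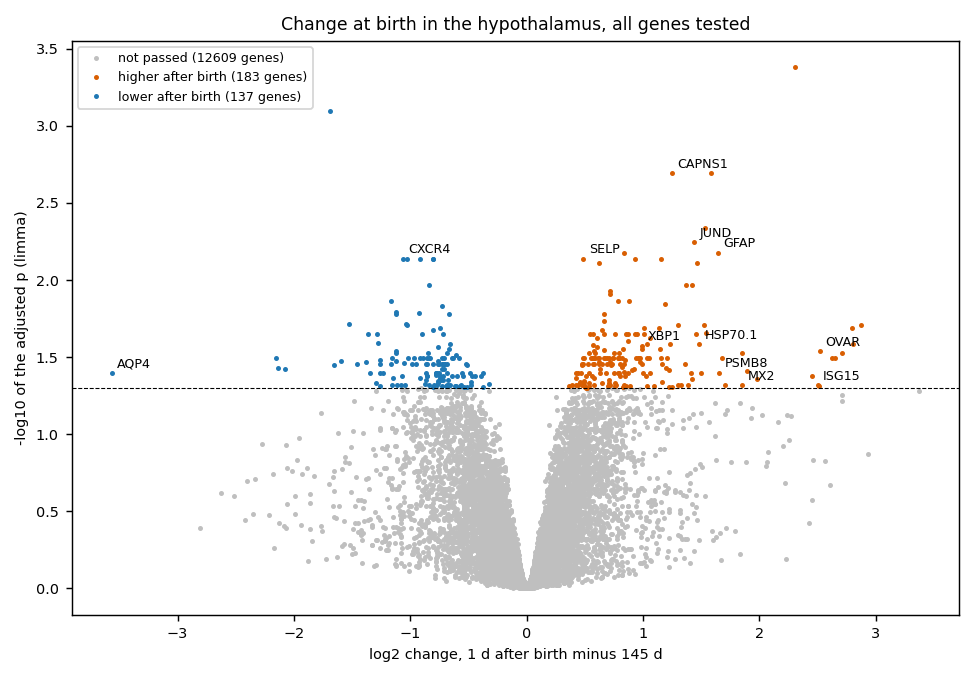
Log2 change between 145 d and 1 d after birth (x axis) against the -log10 of limma's adjusted p (y axis) for each of the 12929 genes tested in the hypothalamus, with the threshold of 0.05 as a dashed line. The 183 genes that rose and the 137 that fell are coloured. AQP4 stands alone at the left with a change of -3.57. At the right lie OVAR and ISG15 with changes near 2.5, and MX2 and PSMB8 with 1.85 and 1.66.

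Of the genes that the naming rule took, 18 rose and 8 fell. Among them, 6 passed whichever of the 8 arrays was left out: GFAP, JUND, CAPNS1 and SELP, which rose, and CXCR4 and HACD1, which fell. None of these 6 passed when the 8 arrays were fitted alone, and only JUND of them passed with 75th percentile scaling after normexp. These 6 are described first within their groups. The others kept their direction but missed the threshold without at least 1 array, and the array is named beside the gene.

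Of the 8 astrocyte markers measured 1 rose and 1 fell, against 1.42% and 1.06% of all genes. GFAP, the intermediate filament protein of astrocytes, had levels of 10.08, 11.69, 10.92 and 10.88 on 145 d replicates 1 to 4 and of 12.80, 12.57, 12.20 and 12.57 on newborn replicates 1 to 4. All newborn arrays were above all 145 d arrays, and above every earlier fetal array. The rise was 1.64 ± 0.26 on the log2 scale (SE, n = 4 per age), or 3.12-fold (limma adjusted p = 0.00663). This SE, like those of the other birth changes in hypothalamus, rests on a spread pooled over the hypothalamus arrays of all ages. Both GFAP probes rose, by 1.58 and 1.71. Before birth its median level was 8.64 (80 d), 9.35 (100 d), 10.46 (120 d) and 10.24 (130 d).

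AQP4, the water channel of astrocyte endfeet, had levels of 15.52, 15.94, 16.29 and 16.48 at 145 d, among the highest signals of the array. In the newborn its levels were 8.95 on replicate 1 and 14.25 and 14.28 on replicates 3 and 4, and the spot on replicate 2 carried an outlier mark and was left out of the fit. All 3 newborn values were below every fetal array, where the levels had stayed between 14.64 and 16.66 from 80 to 130 d. The change was -3.57 ± 0.86 (SE, n = 4 at 145 d and 3 in the newborn), 11.8-fold lower (limma adjusted p = 0.0403). Its size rested on newborn replicate 1: without that array the change was -1.79 (adjusted p = 0.0248). With the marked spot kept, the change was -3.02 (adjusted p = 0.0657), and in the authors' normalized table it was -2.80 (adjusted p = 0.0744). The call was also lost without any 1 of the 145 d arrays (adjusted p up to 0.0966, changes of -3.74 to -3.43) and without newborn replicate 2 (adjusted p = 0.068). AQP4 is represented by 1 probe.

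Of the other astrocyte markers none passed the test. MT3, a metallothionein, changed by 0.20 ± 0.14 (SE) and EAAT1, a glutamate transporter, by 0.41 ± 0.41. GJA1, the gap junction protein connexin 43, changed by 0.06 ± 0.33 and EAAT2, the main glutamate transporter of astrocytes, by -0.02 ± 0.18. The 8 markers together had a median change of 0.13, with 1 higher and 1 lower, and their mean log2 level ranged from 9.85 to 10.52 at 145 d and from 9.79 to 10.34 in the newborn (on newborn replicate 2 without AQP4).

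**Figure D2:**
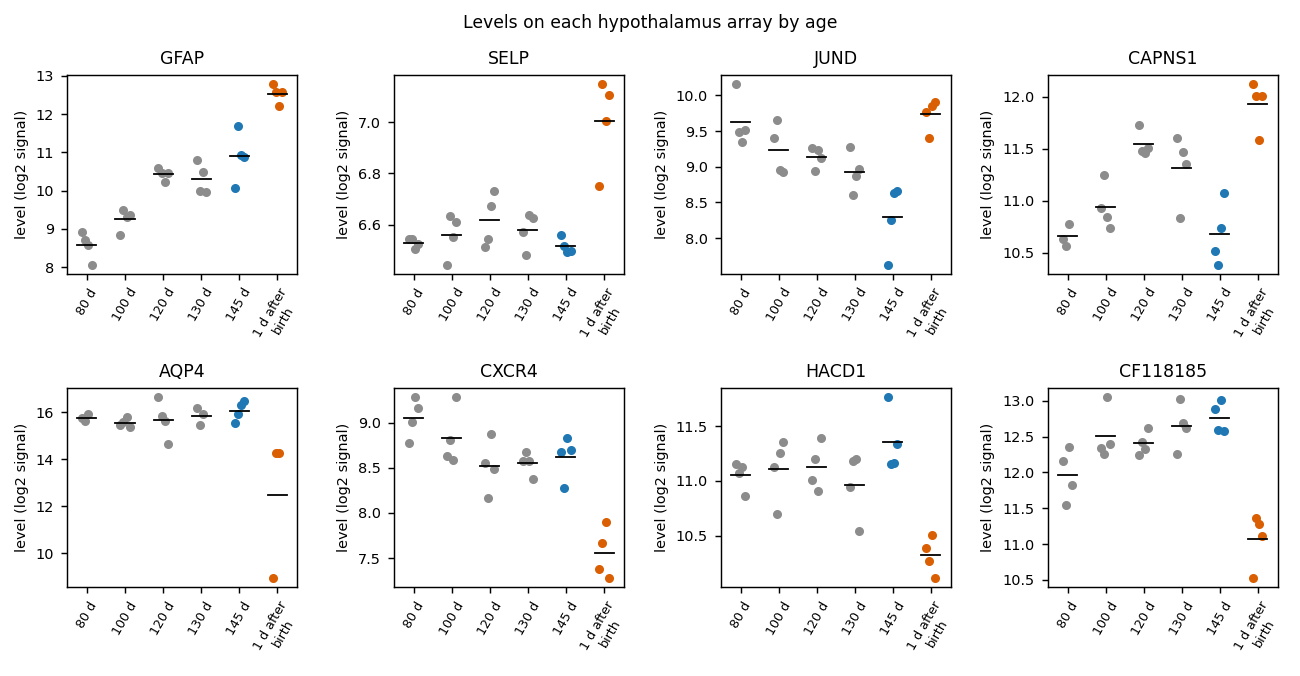
Level on each hypothalamus array (y axis, log2 signal) against age (x axis), each dot an array and each line the mean of its age, for GFAP, SELP, JUND, CAPNS1, AQP4, CXCR4, HACD1 and the unnamed CF118185. GFAP climbs through gestation and again at birth, JUND and CAPNS1 dip at 145 d, and CXCR4, HACD1 and CF118185 lie below all fetal arrays after birth. AQP4 has 3 newborn dots because the spot on newborn replicate 2 was left out.

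Of the 10 immediate early and heat shock genes measured 3 rose, where 1.42% of all genes did, and 0 fell, with a median change of 0.19. JUND, a subunit of the AP-1 transcription factor, had levels of 7.63, 8.25, 8.63 and 8.66 at 145 d and 9.77, 9.41, 9.85 and 9.91 in the newborn. The groups did not overlap, and the rise was 1.44 ± 0.22 (SE, 2.72-fold, limma adjusted p = 0.00569). The newborn levels were within the range of earlier fetal ages: the median of JUND was 9.50 at 80 d, 9.18 at 100 d, 9.18 at 120 d and 8.92 at 130 d, and the median at 145 d, 8.44, was the lowest of the 6 ages. JUNB, a related AP-1 subunit, had levels of 7.33, 7.60, 7.70 and 7.58 at 145 d and 7.78, 7.98, 8.21 and 8.17 after birth. Its rise of 0.49 ± 0.11 was small but without overlap (adjusted p = 0.0319). It was lost without 145 d replicate 1 (0.41, adjusted p = 0.105) and, at an adjusted p of 0.05 to 0.0891, without 145 d replicate 4 or newborn replicates 2, 3 or 4. After correction for probe G+C share JUNB also missed the threshold (0.38, adjusted p = 0.0957).

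HSP70.1, the inducible chaperone of the heat shock response, had levels of 8.89, 9.05, 9.12 and 9.11 at 145 d and 10.43, 11, 10.09 and 10.59 in the newborn. All newborn arrays were higher, by 1.48 ± 0.32 on average (SE, 2.80-fold, adjusted p = 0.0261 in limma). The adjusted p was 0.0784 without 145 d replicate 1 (change 1.43), 0.0748 without newborn replicate 2 (1.33) and 0.0604 without newborn replicate 4 (1.46). Its probes agreed in direction, with changes of 1.34 and 1.62, and the former alone missed the threshold. HSP90AA1, a cytosolic chaperone, changed by 0.30 ± 0.13 (adjusted p = 0.218), and HSPA5, the chaperone of the endoplasmic reticulum, by 0.09 ± 0.19 (adjusted p = 0.853).

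CAPNS1, XBP1, AKT1 and SQSTM1, which belong to no common list, also rose. CAPNS1, the regulatory subunit of the calcium-dependent protease calpain, had levels of 10.52, 10.39, 10.74 and 11.08 at 145 d and 12.13, 12.01, 11.58 and 12.01 in the newborn. This was a rise of 1.25 ± 0.17 without overlap (SE, 2.38-fold, limma adjusted p = 0.00202), the lowest adjusted p among genes with a symbol. The median of CAPNS1 had been 10.64 at 80 d, 11.50 at 120 d and 11.41 at 130 d, so that 145 d was again low beside the ages around it. XBP1, a transcription factor of the unfolded protein response, rose by 0.99 ± 0.21 (adjusted p = 0.0266), from 10.96 to 11.53 at 145 d to 11.86 to 12.43 after birth. AKT1, a kinase of insulin and growth factor signaling, rose by 0.87 ± 0.22 (adjusted p = 0.0401), with 145 d levels of 8.01, 8.93, 8.96 and 9.02 and newborn levels of 9.48, 9.76, 9.37 and 9.80. The AKT1 median had been 9.38, 9.47, 9.51 and 9.06 at 80, 100, 120 and 130 d, against 8.95 at 145 d. Newborn AKT1 levels were within the range of these earlier ages. For XBP1 the medians were 11.57, 11.55, 11.67 and 11.70, against 11.15 at 145 d.

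SQSTM1, the p62 receptor that carries proteins to autophagy, rose by 1.5 ± 0.37 (SE, 2.83-fold, limma adjusted p = 0.0402). Its levels were 10.22, 11.12, 9.26 and 10.84 at 145 d and 12.13, 11.99, 11.52 and 11.80 in the newborn, so the fetal arrays spread over a wider range. Neither of its 2 probes passed alone (2.02, adjusted p = 0.182, and 0.82, adjusted p = 0.115), and on newborn replicate 2 the dimmer probe was left out, so that the level there is that of the brighter probe. SQSTM1 also missed the threshold with the processed signal (1.51, adjusted p = 0.0942), in the authors' table (1.17, adjusted p = 0.0907) and with outlier marks kept (1.18, adjusted p = 0.108). The groups did not overlap for CAPNS1, XBP1, AKT1 or SQSTM1. Each of XBP1, AKT1 and SQSTM1 missed the threshold without 145 d replicate 1, with changes of 1.01, 0.63 and 1.45 (adjusted p = 0.0617, 0.132 and 0.118). They also missed it without newborn replicate 2 (adjusted p = 0.0735, 0.102 and 0.0937) and without newborn replicate 4 (0.0598, 0.102 and 0.0887). XBP1 and AKT1 missed it without 145 d replicate 2 (0.0516 and 0.0503), XBP1 without 145 d replicate 4 (0.05), and SQSTM1 without 145 d replicate 3 (0.0802) or newborn replicates 1 (0.0702) or 3 (0.0512).

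Among the genes that fell, CXCR4, the receptor of the chemokine CXCL12 that guides migrating neurons and leukocytes, had levels of 8.67, 8.27, 8.83 and 8.70 at 145 d and 7.38, 7.67, 7.90 and 7.28 in the newborn. The newborn levels lay below all 20 fetal arrays, and the fall of CXCR4 was -1.06 ± 0.18 (SE, 2.09-fold, limma adjusted p = 0.00727). Its median had declined slowly from 9.08 at 80 d to 8.57 at 130 d. The 2 CXCR4 probes fell by -1.25 and -0.88, and the latter alone missed the threshold (adjusted p = 0.0733). On newborn replicate 1 the former lay in a dim area of the array, where the surrounding spots deviated by -1.07 on the log2 scale, and the call of CXCR4 held with such spots left out. HACD1, an enzyme of very long chain fatty acid elongation, had levels of 11.77, 11.15, 11.16 and 11.34 at 145 d and 10.39, 10.27, 10.51 and 10.12 after birth. It too was below every fetal array, at -1.03 ± 0.17 (2.04-fold, adjusted p = 0.00727), and both of its probes passed alone.

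The list of glycolysis genes had 1 faller among 4 measured genes, and that of mitochondrial energy genes 1 among 14, where 1.06% of all genes fell. GAPDH, an enzyme of glycolysis, had levels of 10.83, 10.30, 9.87 and 9.84 at 145 d and 9.40, 8.84, 8.91 and 8.65 in the newborn. The groups did not overlap, and the fall was -1.26 ± 0.33 (SE, limma adjusted p = 0.0484). ATP5PD, a subunit of the mitochondrial ATP synthase, had levels of 10.19, 9.40, 8.81 and 9.16 at 145 d and 8.68, 8.06, 8.0 and 7.88 after birth, a fall of -1.24 ± 0.30 (adjusted p = 0.0398). At 120 d GAPDH was at 8.88, 10.20, 8.56 and 10.25 and ATP5PD at 8.37, 9.26, 7.90 and 9.39. Newborn GAPDH levels thus lay within the range of earlier fetal arrays. So did those of ATP5PD, apart from replicate 4, which was just below it. Both genes had their highest level of any age on 145 d replicate 1. Other enzymes of these lists did not pass, such as ALDOA (aldolase, 0.76 ± 0.26, adjusted p = 0.104), LDHA (lactate dehydrogenase, 0.40 ± 0.39, adjusted p = 0.612) and ATP5MC2 (another ATP synthase subunit, -0.39 ± 0.15, adjusted p = 0.161). The median change was 0.21 over the glycolysis genes and -0.16 over the mitochondrial genes, against 0.00 over all genes. Without 145 d replicate 1, GAPDH changed by -1.05 (adjusted p = 0.161) and ATP5PD by -0.97 (adjusted p = 0.136). Both also missed the threshold without 145 d replicate 2 or 4 or without newborn replicate 2, 3 or 4, and GAPDH without 145 d replicate 3 (adjusted p of 0.0513 to 0.118 in all).

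TIMP2, an inhibitor of matrix metalloproteinases, fell by -1.02 ± 0.23 (limma adjusted p = 0.0319), from levels of 8.49, 8.20, 8.03 and 7.80 at 145 d to 6.49, 7.17, 7.57 and 7.2 in the newborn. MAST, a gene that the files give by this name alone, fell by -0.83 ± 0.19 (adjusted p = 0.0322), from levels of 7.46 to 8.36 to levels of 6.52 to 7.08. For both genes the newborn level on replicate 1 was the lowest and not well above background. The TIMP2 spot there lay in a dim area (-0.60 on the log2 scale), and with such spots left out its change was -0.82 (adjusted p = 0.0605). TRA2A, a splicing factor, fell by -0.57 ± 0.15 (adjusted p = 0.0482), from levels of 10.89, 10.59, 10.63 and 10.59 to 10.22, 10.09, 10.17 and 9.96, below every fetal array. The newborn and 145 d arrays did not overlap for any of the 3. Without 145 d replicate 1 the changes of TIMP2, MAST and TRA2A were -0.90, -0.62 and -0.49 (adjusted p = 0.102, 0.107 and 0.15). TRA2A missed the threshold without any 1 of the 8 arrays, and TIMP2 and MAST also without newborn replicate 1 (-0.82 and -0.71), 2 (-1.04 and -0.84) or 4 (-1.05 and -0.89), and TIMP2 without 145 d replicate 2 (-1.0).

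The largest rises among named genes were those of MHC class I and of interferon response genes. Class I is highly polymorphic and its copies share sequence, so the probes are shown to make visible which of them could bind the same RNA. Each is a 60-base probe of the array, given 5′ to 3′, and the capitals mark the longest stretch that it shares with another class I probe. OVAR has a second probe, and the others were chosen for display after their values were seen. OVAR and U03092 share 33 bases, AJ874681 and AJ874675 share 53, and AJ874683 shares 30 with U03092, while EF489531 shares at most 7 with any other.
OVAR: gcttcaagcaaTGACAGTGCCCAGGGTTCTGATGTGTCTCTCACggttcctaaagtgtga
U03092: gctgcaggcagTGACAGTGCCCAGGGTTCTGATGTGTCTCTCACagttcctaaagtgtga
AJ874683: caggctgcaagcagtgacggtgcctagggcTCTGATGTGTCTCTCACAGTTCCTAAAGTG
AJ874681: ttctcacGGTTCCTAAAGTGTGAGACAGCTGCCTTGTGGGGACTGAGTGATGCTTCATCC
AJ874675: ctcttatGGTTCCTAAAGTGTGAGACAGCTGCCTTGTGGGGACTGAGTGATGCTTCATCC
EF489531: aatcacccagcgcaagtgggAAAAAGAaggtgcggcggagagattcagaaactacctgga

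Tested probe by probe, 9 of the 15 MHC class I probes rose and 0 fell, where 1.41% of all 13471 probes rose. All 15 had a higher mean in the newborn, with a median change of 2.52 on the log2 scale (range 0.16 to 2.88). A higher mean was also seen for 6568 of the 12929 genes tested. Probes that share most of their letters cannot be read as separate genes. OVAR, the class I gene with 2 probes, had levels of 11.68, 12.23, 12.66 and 12.53 at 145 d and 13.42, 16.62, 15.24 and 13.90 in the newborn. The groups did not overlap, and newborn replicate 2 was far above the others. The rise of OVAR was 2.52 ± 0.55 (SE, 5.72-fold, limma adjusted p = 0.0289). AJ874683 rose by 2.88 ± 0.57, AJ874675 by 2.80 ± 0.60 and AJ874681 by 2.80 ± 0.56. EF489531, whose probe differs from these, had newborn levels of 6.40, 11.67, 6.54 and 6.62 against 7.52 to 7.84 at 145 d, so that replicate 2 was high and the other 3 were low. Newborn replicate 2 had the highest level in 13 of the 15 class I probes, and the M34672 probe had no value on that array. Without it OVAR changed by 1.91 (adjusted p = 0.0748), and the call was also lost without 145 d replicate 1 (2.32, adjusted p = 0.0958) or newborn replicate 3 (2.37, adjusted p = 0.0521).

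MHC class II, which presents peptides to helper T cells, had 10 probes, of which 0 passed, all 10 with a higher mean in the newborn and a median change of 1.20. Its most changed probe, MHCII-DRB1, had levels of 9.99, 8.88, 8.54 and 8.84 at 145 d and 9.90, 12.46, 10.81 and 9.58 in the newborn. The groups overlapped, and the change was 1.62 ± 0.62 (limma adjusted p = 0.147).

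All 9 interferon response genes measured had a higher mean in the newborn, with a median change of 1.32, and 3 of them passed. Over all 12929 genes tested, 6568 had a higher mean and 183 (1.42%) passed as higher. ISG15, a ubiquitin-like protein induced by interferon, had levels of 10.23, 10.66, 9.05 and 10.24 at 145 d and 13.34, 14.64, 11.48 and 10.72 in the newborn. All newborn arrays were above all 145 d arrays, replicate 4 by a narrow margin. The rise was 2.50 ± 0.66 (SE, 5.66-fold, limma adjusted p = 0.0482). MX2, an antiviral GTPase, had levels of 9.53, 9.79, 8.81 and 8.03 at 145 d and 11.01, 12.18, 11.08 and 9.30 after birth. Newborn replicate 4 lay within the 145 d range, and the rise was 1.85 ± 0.48 (3.61-fold, adjusted p = 0.0482). PSMB8, the interferon-induced subunit of the immunoproteasome that cuts peptides for class I, had levels of 7.37, 7.59, 7.32 and 7.47 at 145 d and 8.26, 10.63, 9.14 and 8.34 in the newborn. These did not overlap, and the rise was 1.66 ± 0.41 (3.15-fold, adjusted p = 0.0398).

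The other 6 interferon genes did not pass. CXCL10, a chemokine that attracts T cells, had levels of 8.50, 7.31, 7.26 and 7.79 at 145 d and 9.71, 13.97, 9.41 and 7.62 in the newborn (2.46 ± 0.94, limma adjusted p = 0.147). Newborn replicate 2 was again far above the rest, and replicate 4 was at the fetal level. MX1, the related antiviral GTPase, differed by 1.32 ± 0.72 (adjusted p = 0.322). Without newborn replicate 2 the changes of ISG15, MX2 and PSMB8 were 1.80, 1.42 and 1.14 (adjusted p = 0.131, 0.133 and 0.102). Without 145 d replicate 1 they were 2.56, 2.02 and 1.63 (0.117, 0.0966 and 0.112). ISG15 passed only with newborn replicate 3 or 4 left out, MX2 only with 145 d replicate 2 or newborn replicate 4 left out, and PSMB8 only with newborn replicate 1 left out. Over the normalizations, filters and omissions 0 to 4 interferon genes passed.

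Of the 8 markers of T cells and cytotoxic lymphocytes measured, GNLY (granulysin, a cytotoxic granule protein) rose, 0 fell, and the median change was 0.42. Among all genes tested 1.42% rose. GNLY had levels of 6.64, 6.80, 6.57 and 6.59 at 145 d and 6.66, 9.21, 8.0 and 8.37 in the newborn. Newborn replicate 1 was at the fetal level and the other 3 were above it (1.41 ± 0.35, limma adjusted p = 0.0398). Its 4 probes disagreed in size, with changes of 2.75, 2.29, 0.40 and 0.20, and the call was lost without any 1 array other than newborn replicate 1 (changes of 1.02 to 1.46). CD3E, a chain of the T cell receptor complex, had levels of 7.36, 7.66, 7.42 and 7.37 at 145 d and 7.08, 9.46, 8.29 and 7.96 in the newborn (0.74 ± 0.35, adjusted p = 0.24). CD3D, another chain, was at 6.77 on all 145 d arrays and at 6.78, 8.70, 7.62 and 7.28 in the newborn (0.82 ± 0.31, adjusted p = 0.14). The mean log2 level of the 8 markers was 7.34 to 7.41 at 145 d and 7.39, 8.34, 7.84 and 7.80 on newborn replicates 1 to 4. Its part in the MHC and interferon results was not tested.

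The order of the newborn arrays differed between genes. For ISG15, MX1 and CXCL10 the order from high to low was replicate 2, 1, 3 and 4. For OVAR, CD3E, CD3D and the interferon-induced PSMB8 it was replicate 2, 3, 4 and 1. MX2 followed neither order, with replicate 2, 3, 1 and 4, and nor did GNLY, with replicate 2, 4, 3 and 1. Newborn replicate 1 thus combined the second highest ISG15 level (13.34) with T cell markers at the fetal level. These genes were picked for this description after their values were seen. The labels number the replicates within a region and do not say that a number is the same animal throughout. The study did dissect the regions from the same brains, so arrays of other regions are not other animals.

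For ISG15 and OVAR the same numbers held the same places in cortex and brainstem. ISG15 in cortex was 14.02 on newborn replicate 2, 12.55 on replicate 1, 11.41 on replicate 3 and 9.61 on replicate 4, and OVAR was 16.71, 13.66, 15.003 and 14.03 on the arrays in that order. In brainstem ISG15 was 14.54, 13.16, 11.10 and 10.12 and OVAR 16.85, 14.04, 15.15 and 14.30 on replicates 2, 1, 3 and 4. In hippocampus newborn replicate 1 was highest in both, at 13.97 for ISG15 and 16.47 for OVAR, and replicate 3 was second in ISG15 (12.73) and lowest in OVAR (12.47). In each region, then, the array lowest in OVAR was second in ISG15. A single fetal array stood out in the same way: on 120 d hypothalamus replicate 4 the levels were 14.93 for OVAR, 9.67 for PSMB8, 12.57 for ISG15, 8.84 for CD3E and 7.97 for GNLY, above the other 3 arrays of that age for each gene. This fetal array was the only hypothalamus array on its slide, so animal and slide cannot be told apart there.

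**Figure D3:**
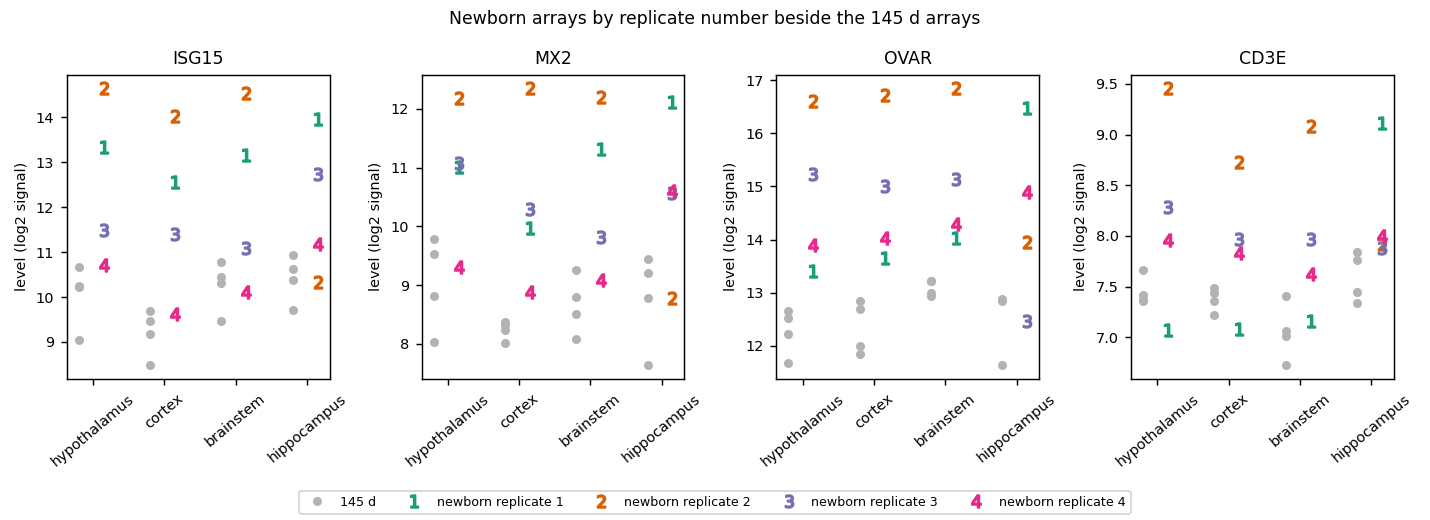
Level (y axis, log2 signal) of ISG15, MX2, OVAR and CD3E in hypothalamus, cortex, brainstem and hippocampus (x axis), with the 145 d arrays as grey dots and each newborn array drawn as its replicate number. Replicate 2 is highest in hypothalamus, cortex and brainstem and replicate 1 in hippocampus, and CD3E on hypothalamus replicate 1 lies at 7.08, below the 145 d arrays.

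SELP, ICAM1, CD14 and TNFRSF1A rose by smaller amounts. SELP, P-selectin, which platelets and endothelium expose to catch leukocytes, had levels of 6.56, 6.51, 6.49 and 6.5 at 145 d and 6.75, 7.15, 7.01 and 7.11 in the newborn. All newborn levels were above those of all 20 fetal arrays, and the rise was 0.49 ± 0.08 (SE, 1.40-fold, limma adjusted p = 0.00727). At 145 d SELP was well above background on 1 of the 4 arrays. The offset added in background correction narrows changes of such dim probes, and the change ran from 0.39 to 2.30 over the alternatives. ICAM1, the ligand of leukocyte integrins, had levels of 6.75, 6.66, 6.81 and 6.83 at 145 d and 7.01, 7.61, 7.14 and 7.58 in the newborn (0.58 ± 0.13, adjusted p = 0.0289). These did not overlap. CD14, the lipopolysaccharide coreceptor of myeloid cells, had levels of 7.80, 7.63, 7.75 and 7.66 at 145 d and 7.76, 8.74, 8.54 and 8.69 in the newborn (0.72 ± 0.19, adjusted p = 0.0482). Newborn replicate 1 was at the fetal level. TNFRSF1A, a receptor of tumor necrosis factor, rose by 0.49 ± 0.13 (adjusted p = 0.046), from levels of 6.71 to 7.05 to levels of 7.13 to 7.67. Its median had been 7.07, 7.13, 7.16 and 7.04 at 80, 100, 120 and 130 d, against 6.85 at 145 d. TLR7, a sensor of viral RNA named here after its values were seen, rose by 0.39 ± 0.10 (adjusted p = 0.0482), from levels of 6.80 to 6.97 to levels of 7.06 to 7.62, above all fetal arrays, and missed the threshold without any 1 array other than newborn replicate 1 (changes of 0.28 to 0.45).

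The calls of ICAM1, CD14 and TNFRSF1A were lost without 145 d replicate 1 (changes of 0.57, 0.75 and 0.44, adjusted p = 0.0745, 0.109 and 0.139), without newborn replicate 2 (0.49, 0.62 and 0.39, adjusted p = 0.0821, 0.126 and 0.126) and without newborn replicate 4 (0.49, 0.63 and 0.53, adjusted p = 0.0826, 0.125 and 0.0765). Those of ICAM1 and CD14 were also lost without 145 d replicate 2, those of CD14 and TNFRSF1A without 145 d replicates 3 or 4, that of CD14 without newborn replicate 3 and that of TNFRSF1A without newborn replicate 1. Of the 12 vessel and barrier genes 2 rose (SELP and ICAM1) and 0 fell, with a median change of 0.02. Over all genes tested, 1.42% rose and 1.06% fell. PECAM1, a junction protein of all endothelium, changed by 0.04 ± 0.19, and the 7 endothelium markers had 0 calls and a median change of 0.04. Of the 12 microglia and myeloid markers 1 rose, CD14, and 0 fell, with a median change of 0.28 and a mean log2 level of 7.60 to 7.78 at 145 d and 7.83 to 8.41 in the newborn. Other immune genes did not pass: CD5, a T cell coreceptor, changed by 0.45 ± 0.15 (limma adjusted p = 0.101) and TGFB1, an inhibitory cytokine, by 0.43 ± 0.17 (adjusted p = 0.149), both without overlap, while IL10 (0.18 ± 0.15), CD9 (0.24 ± 0.64), CD1D (0.16 ± 0.37), FCGR2B (-0.09 ± 0.08) and ITGAM (-0.26 ± 0.13) overlapped between the ages. The 4 erythroid markers had 0 calls, and HBB (beta globin) changed by -0.69 ± 0.49.

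None of the hypothalamic peptide genes measured passed the test. Of the 53 peptides and peptide-processing genes of the list 16 were measured, and AVP, CRH and TRH were not among them. Of these 16, 0 rose and 0 fell, with a median change of -0.07. Over all genes tested 1.42% rose and 1.06% fell, so 0 calls in a list of this size does not set it apart. OXT had levels of 10.35, 11.44, 10.90 and 11.34 at 145 d and 10.67, 11.37, 10.61 and 11.12 in the newborn, and its change was -0.06 ± 0.69 (SE). SST (somatostatin, which restrains growth hormone) changed by -0.09 ± 0.39, POMC (the precursor of ACTH and melanocortins) by 0.17 ± 0.28, and NPY (which promotes feeding) by 0.60 ± 0.35. TAC3 and GRP were the 2 peptides whose groups did not overlap, and they are named after their values were seen. Over all genes tested, 6.96% had all newborn arrays above all 145 d arrays and 5.22% had them below. The count of 2 among 16 is near these shares. TAC3 (neurokinin B) was at 7.83, 8.0, 7.40 and 7.84 at 145 d and 8.52, 8.68, 8.64 and 8.07 in the newborn (0.71 ± 0.23, limma adjusted p = 0.0867). GRP (gastrin-releasing peptide) was at 9.26, 8.37, 7.97 and 8.14 at 145 d and 7.79, 7.38, 7.78 and 7.71 after birth (-0.77 ± 0.28, adjusted p = 0.129). The newborn levels of GRP were below those of all fetal arrays.

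Of the 32 hormone and transmitter receptors of the list, all with a symbol, 0 passed, with a median change of 0.07 and a range of -0.53 to 0.53. Among all genes tested 2.48% passed. The list held PTGER2, PTGER3 and PTGER4 but not LOC443012, described in the files as the EP1 receptor of prostaglandin E2, which has no symbol there and fell by -2.08 (limma adjusted p = 0.038). EDNRA, an endothelin receptor, had newborn levels of 7.79 to 8.30 below 145 d levels of 8.45 to 8.62 (-0.39 ± 0.12, limma adjusted p = 0.0798). Of 9 glucocorticoid response genes 0 passed, with a median change of 0.02. HSD11B1, the enzyme that regenerates active glucocorticoid, changed by -0.76 ± 0.21 with an adjusted p of 0.0528, its newborn levels of 8.22 to 9.48 lying below the 145 d levels of 9.49 to 9.94. Of 5 thyroid hormone genes 0 passed, with a median change of 0.15.

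Among 16 genes of hypoxia and glucose uptake 0 passed, with a median change of -0.01. The share that passed over all genes tested was 2.48%. VDUP1 (TXNIP, an inhibitor of thioredoxin and glucose uptake) had levels of 11.10, 12.05, 11.20 and 11.67 at 145 d and 12.71, 13.24, 13.17 and 13.79 in the newborn. The groups did not overlap, and the change was 1.72 ± 0.51 with an adjusted p of 0.0693 in limma. Its probes changed by 2.08 (adjusted p = 0.215) and 1.37 (adjusted p = 0.014), so that the second passed alone. EDN1 (endothelin 1, a vasoconstrictor) changed by -0.68 ± 0.18 (adjusted p = 0.0516), from 8.10 to 8.76 at 145 d to 7.49 to 8.05 after birth. SLC2A3, the neuronal glucose transporter, changed by -0.59 ± 0.21 (adjusted p = 0.123).

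Most of the 320 genes have no symbol in the files or in the RefSeq table. Their probes are their identity, so the 4 on which results turn are shown 5′ to 3′ with G and C in capitals. CO202633 rose with the lowest adjusted p of the comparison, CF118185 fell with the next lowest, and EE769660 and LOC443012 changed differently between regions. LOC443012 is described in the files as the prostaglandin E2 receptor EP1. These 4 were chosen after their values were seen.
CO202633: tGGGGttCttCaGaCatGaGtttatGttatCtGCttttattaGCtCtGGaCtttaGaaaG
CF118185: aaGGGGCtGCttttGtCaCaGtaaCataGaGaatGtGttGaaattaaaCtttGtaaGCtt
EE769660: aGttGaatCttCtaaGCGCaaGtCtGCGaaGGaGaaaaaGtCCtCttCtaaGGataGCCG
LOC443012: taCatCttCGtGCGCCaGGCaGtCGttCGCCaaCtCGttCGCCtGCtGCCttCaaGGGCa

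CO202633 had levels of 7.78, 7.13, 6.87 and 6.80 at 145 d and 8.52, 9.40, 10.26 and 9.60 in the newborn. It rose by 2.30 ± 0.27 (SE, 4.94-fold, limma adjusted p = 0.000414), above all fetal arrays, whose levels from 80 to 130 d ranged between 6.25 and 7.11. CF118185 had levels of 12.88, 12.59, 13.01 and 12.58 at 145 d and 10.53, 11.37, 11.28 and 11.11 in the newborn. It fell by -1.69 ± 0.21 (3.24-fold, adjusted p = 0.000805), below all fetal arrays. Both passed whichever array was left out, among 26 genes that did so, 17 of them higher. Neither CO202633 nor CF118185 passed when the 8 arrays were fitted alone.

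LOC443012 had levels of 9.81, 9.60, 9.23 and 9.0 at 145 d and 7.26, 7.29, 7.78 and 6.99 after birth. It fell by -2.08 ± 0.51 (SE, limma adjusted p = 0.038) without overlap, and both of its probes passed, at -2.25 and -1.91. The earlier fetal arrays were divided, with levels from 7.25 to 10.15 at 130 d, so the newborn levels were not outside the fetal range. EE769660 had levels of 6.69, 8.17, 7.59 and 8.21 at 145 d and 9.46, 8.82, 8.59 and 9.61 in the newborn, a rise of 1.45 ± 0.30 (adjusted p = 0.0223). Without 145 d replicate 1 the changes were -1.95 for LOC443012 (adjusted p = 0.119) and 1.13 for EE769660 (adjusted p = 0.0705). LOC443012 also missed the threshold without any other array except newborn replicate 3, and EE769660 without newborn replicate 4.

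Changes at birth were related to the base composition of the probes. Over the 12929 genes the Spearman correlation of the change with the G+C share of the probe was 0.28, a value across genes, which share the same arrays and are not independent replicates. The genes that fell had a median G+C share of 36.7%, those that rose 45%, and all genes 44.2%. Of genes whose probes had 35 to 40% G+C, 0.583% rose and 2.36% fell, whereas from 50 to 55% the shares were 4.11% and 0%. On each array a slope of the values on G+C was fitted relative to the mean of the hypothalamus arrays. The 145 d arrays had slopes of -0.23 to -0.06 per 10 percentage points, with replicate 1 the lowest, and the newborn arrays -0.02 to 0.11, the range of the 20 other hypothalamus arrays being -0.06 to 0.12. After a correction for G+C share 355 genes passed, 217 higher and 138 lower, of which 246 were among the 320. The 6 named genes that passed without any 1 array also passed after this correction. ISG15 (2.38, adjusted p = 0.0509), GNLY (1.35, 0.0531), CD14 (0.60, 0.11), JUNB (0.38, 0.0957) and TRA2A (-0.42, 0.101) missed the threshold after it, with their direction unchanged.

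**Figure D4:**
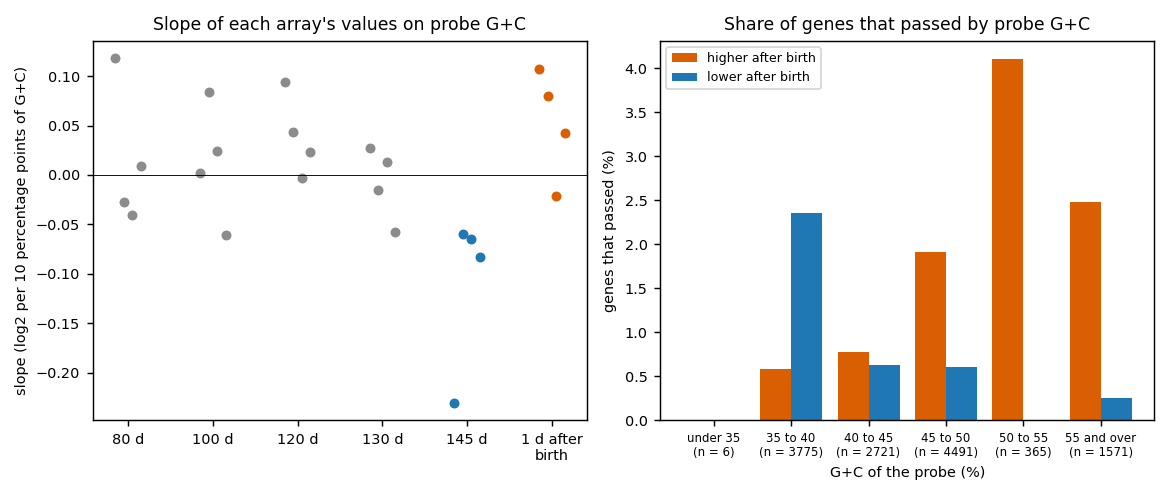
Left: slope of each hypothalamus array's values on the G+C share of the probes (y axis, log2 per 10 percentage points) by age (x axis), each dot an array. The 145 d arrays lie lowest, and replicate 1 lies at -0.23. Right: percent of genes that passed (y axis) by G+C share of the probe (x axis), for genes higher and lower after birth, with 4.11% higher and 0% lower from 50 to 55% G+C.

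The change at birth was set beside that of the other regions in a fit over all 95 arrays. The regions came from the same animals, and this fit treated their arrays as independent. In that fit 559 genes passed in hypothalamus (4.32%), 113 in brainstem (0.874%), 22 in hippocampus (0.17%) and 9 in cortex (0.0696%). These counts do not test a difference between regions. The difference itself passed for 1 gene against cortex (0.00773%), 5 against brainstem (0.0387%) and 6 against hippocampus (0.0464%), with 746, 1076 and 1336 genes at an unadjusted p under 0.05. EE769660 was the gene that differed from cortex: it changed by 1.45 in hypothalamus and by -0.45 in cortex, a difference of 1.91 ± 0.37 (SE, limma adjusted p = 0.0275). LOC443012 differed from hippocampus, with -2.08 in hypothalamus and 0.93 in hippocampus, a difference of -3.00 ± 0.64 (adjusted p = 0.0249). None of the 26 named genes that passed in hypothalamus differed from another region at an adjusted p under 0.05. Without 145 d replicate 1 of the hypothalamus all 3 counts of differences were 0.

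The 183 genes that rose in hypothalamus had the same sign in 152 cases in cortex, 148 in brainstem and 112 in hippocampus, with median changes of 0.15, 0.36 and 0.12 there, against -0.02, 0.03 and -0.02 over all genes. The 137 that fell had the same sign in 118, 92 and 92 cases, with medians of -0.12, -0.14 and -0.13. Over all genes 44.4% were higher in the newborn in cortex, 54.5% in brainstem and 45.5% in hippocampus. Because the regions came from the same animals, agreement between them is not replication in other animals. MHC class I and interferon genes had similar values in all regions: the change of OVAR was 2.52 in hypothalamus, 2.50 in cortex, 1.98 in brainstem and 1.89 in hippocampus, and that of ISG15 2.50, 2.69, 1.98 and 1.64. SELP changed by 0.49, 0.55, 0.60 and 0.35. Other genes had their largest value in hypothalamus, although the differences did not pass. The change of CAPNS1 was 1.25 in hypothalamus and 0.04, 0.29 and -0.09 in cortex, brainstem and hippocampus, with a difference from hippocampus of 1.34 ± 0.32 (limma adjusted p = 0.0679). For JUND it was 1.44 against -0.06, 0.73 and -0.49, with a difference from hippocampus of 1.93 ± 0.45 (adjusted p = 0.0679). For CXCR4 it was -1.06 against -0.19, 0.05 and 0.12 (adjusted p of the differences 0.381 to 0.959), and for ATP5PD -1.24 against 0.01, 0.27 and -0.27 (0.0937 to 0.466). GFAP rose in value everywhere, by 1.64, 0.76, 1.05 and 0.64. Hippocampus arrays of the same age spread widely for such genes, as with XBP1 levels of 10.41, 12.20, 12.40 and 9.50 at 145 d and 12.03, 12.33, 9.47 and 12.11 in the newborn.

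**Figure D5:**
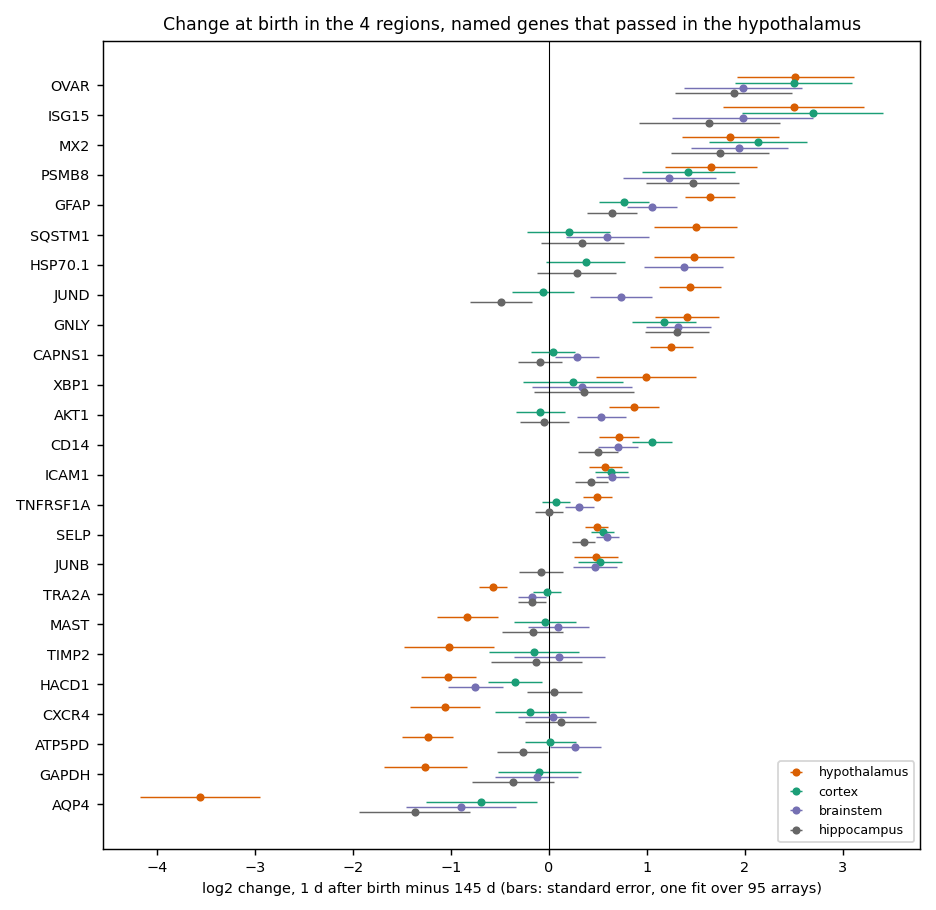
Log2 change between 145 d and 1 d after birth (x axis) of the 25 genes drawn, named genes that passed in hypothalamus (y axis), with the value in hypothalamus, cortex, brainstem and hippocampus as dots and bars of 1 standard error, from the fit over 95 arrays. OVAR, ISG15, MX2, PSMB8 and GNLY lie to the right in all regions, while CAPNS1, CXCR4, ATP5PD and AQP4 lie farthest from 0 in hypothalamus. The size of the AQP4 value there rests on newborn replicate 1, without which the change in the hypothalamus fit was -1.79.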

How the data were processed

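RNA of 95 sheep brain samples was measured on 1-colour Agilent arrays. The authors labeled the RNA with Cy3, hybridized and scanned the arrays, and the deposited scanner files (software 10.1.1.1 per the file headers) hold mean and background intensity and a processed signal for each spot, not normalized between arrays. Normalized log2 values that the authors deposited for the whole series served as an alternative. Groups came from the labels.

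Background intensity was removed by normexp (offset 50, limma 3.58.1 in R 4.3.3), which narrows changes of dim probes, and log2 values were quantile normalized over 95 arrays. Spots with outlier marks were left out, so that AQP4 had 3 newborn values. Probes reaching 1.1 times the 95th percentile of negative controls on at least 4 hypothalamus arrays were kept and averaged by gene name, control spots excluded. The 24 hypothalamus arrays were fitted with lmFit and eBayes, and the contrast of newborn and 145 d was adjusted by Benjamini-Hochberg over 12929 genes (threshold 0.05, two-sided). Differences between regions were contrasts of a fit over 95 arrays, which treated arrays of different regions of the same animals as independent. The test was tried on simulated data. Nothing in the labels separates cultures or litters within an age, and twins are unmarked. Each SE and p-value of the birth change rests on a spread per gene pooled over the 24 hypothalamus arrays of all ages. Where the newborn arrays spread more than the others, it understates the spread of the groups compared. With 4 arrays per age their number limits the precision.

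The genes named were among symbols that passed without overlap, the 15 that rose most and the 15 that fell most, every list member that passed, up to 4 others of each list with the highest level, and the immune genes the study's text names. Some genes that the rule took are not reported here. The members and lists were chosen with earlier results of these data known. List summaries are counts and medians, with no test. The alternatives were other background corrections and scalings, the series table, filters, outlier marks, slide and replicate blocks, fewer arrays, eBayes with trend, array weights, single probes and each array left out. A correction for probe G+C share and the removal of spots in dim areas were added after seeing the data. Promoters were not used here. Symbols came from the files and RefSeq genes (assembly ARS-UI_Ramb_v3.0). Figures were drawn with matplotlib.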

Additional observations from a re-analysis of the deposited data

Results flagged for a closer look

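Sets of 4 arrays of the same age were searched for an array far from the others. The 79 sets came from the named genes that passed, other MHC class I probes that passed, the unnamed genes shown above and the slopes on G+C. An array far from the others was found in 3 sets, where chance gives about 1 in 20. All 3 were on 145 d replicate 1. AKT1 was at 8.01 on this array, with the nearest of the other 3 at 8.93. TRA2A was at 10.89, with the nearest at 10.63. The slope of the values on the G+C share of the probes was -0.23 on it, with the nearest at -0.08.

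Differences between regions in the change at birth were flagged for 2 genes. The change of EE769660 in hypothalamus was 1.91 above that in cortex, and that of LOC443012 was -3.00 relative to hippocampus.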

How the results depend on the processing

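All 26 named genes that passed kept their direction under each alternative run, while their calls did not. The count of 320 genes, of which 57.2% were higher, became 598 with the processed signal (250 higher, 348 lower, 41.8% higher), 2 with 75th percentile scaling after normexp, which moved the median of all genes by 0.29 on the log2 scale, 1 with the 8 arrays alone, 682 with slide as a block and 1540 with array weights. With 1 array left out it was 39 to 319, lowest without 145 d replicate 1. The other normalizations, filters and single probes gave 255 to 355 genes.

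Differences of the birth change from cortex, brainstem and hippocampus numbered 0, 8 and 70 with the processed signal, 3, 1 and 8 in the authors' table, 3, 29 and 43 with slide as a block, and 6, 2 and 0 in fits of 16 arrays. After G+C correction 1 differed from brainstem. With 1 array left out the counts ran from 0 to 4, 0 to 18 and 0 to 53.

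The deviations of same-numbered 145 d and newborn arrays, which shared a slide, correlated at -0.01, 0.18, 0.23 and 0.28. Those of differently numbered arrays ran from -0.424 to 0.311. Replicates 3 and 4 shared a slide as well, and across these numbers the values were 0.234 and 0.195. Whether a number marks more than the slide was not tested. With the replicate number as a block 387 genes passed, 284 of them among the 320, and as a random replicate block the differences numbered 2, 8 and 12.

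Signal near background limits genes such as SELP, and 1 gene that passed, EE814211, has only a bound, at least 1.72-fold higher.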

Other observations

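Among genes described nowhere above, the lysosome list stood to the positive side without a call: 10 of 13 genes had a higher mean in the newborn, with a median change of 0.32 on the log2 scale and 0 passing limma's threshold. A higher mean was found for 6568 of all 12929 genes. CTSS, a cathepsin of antigen-presenting cells, had levels of 10.79, 11.76, 12.01 and 11.60 at 145 d and 12.45, 13.84, 12.35 and 11.78 in the newborn (1.07 ± 0.31, SE, adjusted p = 0.0677). CTSD, the main aspartic protease of lysosomes, had levels of 10.49, 11.89, 12.19 and 12.03 at 145 d and 12.69, 12.48, 12.24 and 12.38 in the newborn, which did not overlap (0.80 ± 0.26, adjusted p = 0.0933). CD81, a tetraspanin, changed by 0.78 ± 0.28 (adjusted p = 0.12) and IFNAR1, a chain of the type I interferon receptor, by 0.76 ± 0.22 (adjusted p = 0.0691), both without overlap. Ribosomal proteins (17 genes), the cell cycle (12), fatty acid and sterol synthesis (14), cytokines and growth factors (45), and the constitutive proteasome (3) had 0 calls, with median changes of -0.08, -0.19, -0.03, 0.06 and 0.65. Markers of oligodendrocytes (3), choroid plexus (5), B cells (1) and cortex or hippocampus (1) had 0 calls as well, and no neuron marker was measured. The share that passed over all genes tested was 2.48%.

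CGA, the alpha subunit shared by pituitary hormones, varied widely between arrays of the same age. Its levels were 9.45, 6.98, 7.85 and 11.81 at 145 d and 10.45, 13.94, 12.36 and 9.14 in the newborn (2.45 ± 1.21, limma adjusted p = 0.265). The 9 other pituitary genes of the list included PRL, with levels of 6.62 to 7.33, and 0 of the 10 passed.

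CHI3L1, a glycoprotein of activated astrocytes and macrophages, was picked after its values were seen. It was at 8.75 to 8.88 on the 145 d arrays and at 11.46, 10.09 and 9.84 on newborn replicates 2, 3 and 4, but at 6.47 on newborn replicate 1, where the spots around it deviated by -0.67 on the log2 scale. Its change was 0.65 with an adjusted p of 0.605. Spots in such dim areas numbered 607 on newborn replicate 1 and 439 on 145 d replicate 1, and 0 on newborn replicates 3 and 4. The spot of AQP4 on newborn replicate 1 lay outside them, with surroundings at -0.14. In their deviations from the group means, newborn hypothalamus and cortex arrays of the same number correlated across genes at 0.20, 0.54, 0.26 and 0.24, those of hypothalamus and brainstem at 0.21, 0.39, -0.13 and 0.28, and those of hypothalamus and hippocampus at -0.11, 0.09, 0.08 and 0.11. These are values over genes within pairs of arrays.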
